A study of Mus musculus with 35 samples.

Results

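Genes known as markers of intestinal revival stem cells and of fetal-like epithelium, Clu, Il33, Spp1, Il1rn, Cd44, Emp1, Tnfrsf12a, Msln and Ly6a, were followed in organoids of mouse colon tumours treated in vitro with palmitic acid or with carmofur. They were chosen by gene name, 9 of the 54354 genes in the expression table, and each name matched a single gene. The organoids carry the genotype labelled AKP in every group, controls included, and the labels do not spell out its alleles. The palmitic acid experiment has 3 controls, 3 libraries of a treated batch 1 and 2 libraries of a treated batch 2, and the carmofur experiment has 12 controls and 15 treated libraries. Palmitic acid is a saturated fatty acid, and carmofur is named by the submitters as an inhibitor of ceramidase, the enzyme that breaks down ceramide. Whether changes with carmofur run through ceramidase or through another action of the drug was not tested. The submitters state that the treatments were meant to test how fatty acid and ceramide levels alter transcription in these organoids. Dose, duration and solvent are not in the labels used here. Whether the replicate libraries of a group are separate cultures is not stated either, and the p-values rest on the spread among libraries alone, which may be technical.

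When intestinal epithelium is injured, crypt-base stem cells are lost and surviving cells take on a transient state that resembles the fetal gut, from which the crypt is rebuilt. Clu, which encodes the secreted chaperone clusterin, defines the revival stem cells of the damaged intestine, and Ly6a, which encodes the surface protein Sca-1, marks the fetal-like repairing epithelium. This state is associated with YAP/TAZ signalling through TEAD transcription factors and often with AP-1. The other 7 genes include 3 released signals (Spp1, Il33 and Il1rn) and 4 surface proteins (Cd44, Emp1, Tnfrsf12a and Msln). Several of the 7 are also raised in wound repair and in tumours.

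All 9 genes are protein-coding in GENCODE M21 on mm10. Clu (ENSMUSG00000022037) lies at chr14:65968483-65981547 and Il33 (ENSMUSG00000024810) at chr19:29925114-29960718, both on the plus strand. Spp1 (ENSMUSG00000029304) lies at chr5:104435118-104441050, Il1rn (ENSMUSG00000026981) at chr2:24336853-24351494 and Emp1 (ENSMUSG00000030208) at chr6:135362545-135383173, also on the plus strand. Cd44 (ENSMUSG00000005087, chr2:102811141-102901665), Tnfrsf12a (ENSMUSG00000023905, chr17:23675445-23677468), Msln (ENSMUSG00000063011, chr17:25748613-25754378) and Ly6a (ENSMUSG00000075602, chr15:74994877-74998031) lie on the minus strand. The genes are therefore spread over 7 chromosomes, with Il1rn and Cd44 far apart on chromosome 2 and Tnfrsf12a and Msln on chromosome 17. Of the 31-base words in the transcripts of Ly6a, 31.9% also occur in other genes, among them its relatives Ly6c1, Ly6c2 and Ly6i, so its counts depend on how the authors' counting divided such reads. The share was 14.3% for Spp1, all with the predicted gene Gm42793, 3.61% for Msln and below 0.5% for the other 6.

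Promoter sequence, taken from RefSeq on GRCm38.p6, was found for 6 of the 9 genes at 11 transcription starts, and not for Clu, Msln and Ly6a. The 250 bases before each start were searched on both strands for the AP-1 site TGANTCA, held by 6.75% of all 32851 promoter windows of this length, and for the TEAD site GGAATG, held by 12.6%. The windows before the first starts of the 3 released signals are printed 5′ to 3′ on the gene's strand, with any match in capitals. All 3 genes were higher with carmofur, as given further on. Il33 holds a TEAD match that begins 131 bases before the start, Il1rn an AP-1 match that begins 141 bases before it, and Spp1 neither.
Il33 promoter, chr19:29924863-29925112, + strand: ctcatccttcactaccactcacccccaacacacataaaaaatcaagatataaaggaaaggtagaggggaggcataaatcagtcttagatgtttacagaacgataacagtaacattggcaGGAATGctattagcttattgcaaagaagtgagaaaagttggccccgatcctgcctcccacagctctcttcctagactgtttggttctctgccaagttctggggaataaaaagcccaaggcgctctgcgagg
Il1rn promoter, chr2:24336610-24336859, + strand: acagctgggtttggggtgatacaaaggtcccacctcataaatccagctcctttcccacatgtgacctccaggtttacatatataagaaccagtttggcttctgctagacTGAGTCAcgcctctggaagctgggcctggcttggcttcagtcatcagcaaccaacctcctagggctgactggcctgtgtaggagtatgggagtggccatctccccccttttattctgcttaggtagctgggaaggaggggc
Spp1 promoter, chr5:104434861-104435110, + strand: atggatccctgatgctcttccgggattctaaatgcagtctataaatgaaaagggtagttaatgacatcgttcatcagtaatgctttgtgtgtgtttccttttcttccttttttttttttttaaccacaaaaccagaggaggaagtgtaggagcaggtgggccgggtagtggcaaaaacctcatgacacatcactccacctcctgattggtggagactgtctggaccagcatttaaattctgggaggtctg

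Emp1 had 2 AP-1 matches before its first start, 145 and 25 bases away, while the windows of Cd44 and Tnfrsf12a held neither motif. The second start of Il33 and the third of Il1rn held a TEAD match 107 and 24 bases away. The AP-1 match of Il1rn lay before its first start only. A match is a description of the letters, not a measured binding site, and its absence speaks only of this window.

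Total counts ran from 762888 to 3742289 in the palmitic acid experiment, with the shallowest library a control, and from 1663750 to 10609563 in the carmofur experiment. 3 carmofur libraries, control 1 and carmofur 8 and 10, had stood apart on principal components in an earlier look at these data, and they are the shallowest control and the 2 shallowest treated libraries. Carmofur-experiment libraries are numbered in 3 blocks of 12, from 201107, 201119 and 201131 on, and in 9 sets of 3 consecutive numbers, each holding a single treatment. The labels do not call these blocks or sets batches. The first and the second block hold 3 controls and 6 treated libraries each, the third 6 controls and 3 treated. Levels are given as CPM, counts per 1000000 counts of a library, scaled by the TMM method within each experiment.

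Epithelial markers were abundant throughout, and the 10 of them summed to between 3185 and 6681 CPM in every library. Mesenchymal markers summed to at most 6.84 CPM, with Col1a1, Col1a2, Lum, Pdgfrb and Thy1 at 0 in all 35 libraries, and the immune genes Cd3e, Csf1r, Adgre1 and Tyrobp and the endothelial genes Cdh5 and Kdr were also at 0 in all 35. The endothelial sum, however, ran from 10.1 to 24.7 CPM in carmofur controls and from 10.4 to 25.1 CPM with carmofur. Pecam1, the highest of the endothelial markers, was detected in all 35 libraries. Macrophages, stroma and mesothelium are known sources of Spp1, Il33 and Msln in tissue. Of the 6 mesothelial markers 4 (Upk3b, Wt1, Calb2 and Gpm6a) were at 0 in all 35 libraries. The mesothelial sum nevertheless ran from 0.255 to 36.9 CPM in carmofur controls and from 14.5 to 90.9 CPM with carmofur, nearly all of it from Upk1b, a uroplakin that epithelia also express, which rose 1.94 ± 0.57 (log2 ± SE, adjusted p = 0.0269). The immune sum ran from 26.8 to 93.7 CPM in carmofur controls and from 7.98 to 187 CPM with carmofur, mostly Cd68, and its part in the results was not tested.

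All 9 genes were higher with carmofur. The largest rises were in Clu (7.57-fold) and Spp1 (7.11-fold), followed by Il33 (3.60-fold), Msln (2.44-fold), Il1rn (2.19-fold) and Cd44 (1.88-fold), while Emp1 (1.53-fold), Tnfrsf12a (1.51-fold) and Ly6a (1.19-fold) rose less. Each passed edgeR's quasi-likelihood test at an adjusted p of 0.05, where 5.21% of the 9992 genes tested were called higher and 3.8% lower. Their median log2 fold change was 1.13, against 0.00 over all genes tested, of which 50.2% had a positive value. In bulk RNA a larger share of cells expressing a gene and more of its RNA per cell cannot be told apart.

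**Figure D1:**
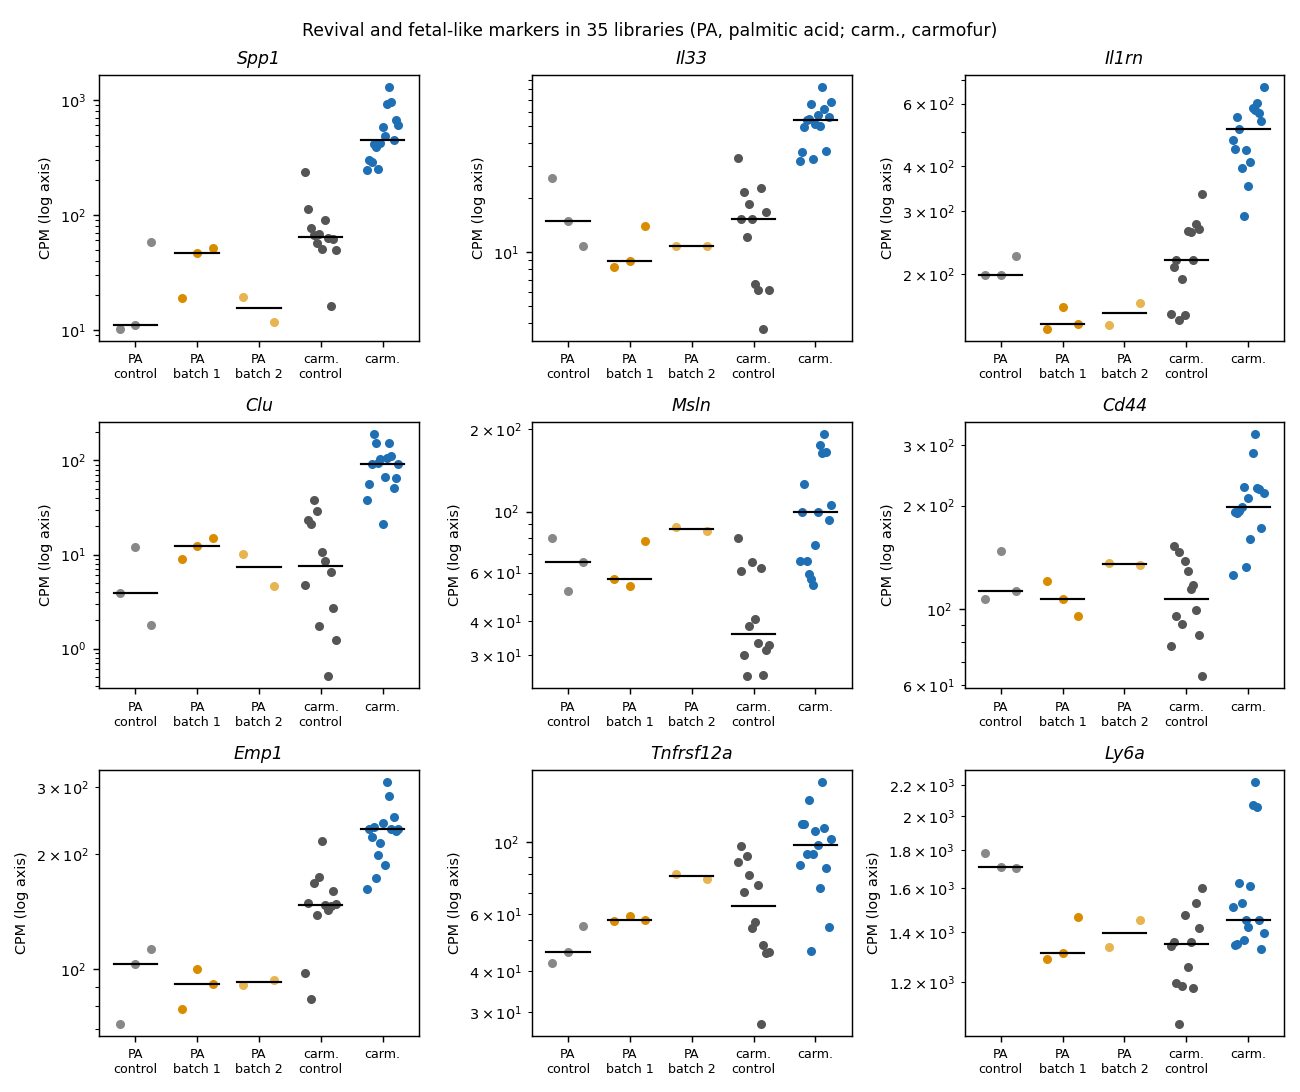
Level of each of the 9 genes in every library as CPM on a log axis, by treatment group, each point a library and each line the median of a group. Carmofur libraries sit above the highest control in 15 of 15 cases for Spp1 and in 5 of 15 for Ly6a, and palmitic acid libraries overlap their controls for most genes.

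Spp1 encodes osteopontin, a secreted ligand of integrins and of the CD44 receptor. Its lowest, median and highest levels were 16.2, 64.6 and 234 CPM in the 12 controls and 247, 444 and 1303 CPM in the 15 treated libraries. The groups did not overlap, a separation that 0.59% of the genes tested showed in the higher direction. Mean levels were 78.8 ± 54.1 (SD, n = 12) and 553 ± 303 (SD, n = 15) CPM, and the log2 fold change was 2.83 ± 0.34 (SE, adjusted p = 9.11e-07). Control 1 held the 234 CPM, and no other control passed 112 CPM.

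Clu had controls at 0.511, 7.57 and 38.0 CPM (lowest, median, highest) and treated libraries at 21.0, 92.3 and 190 CPM. Treated libraries lay above the highest control in 13 of 15 cases. The means were 12.4 ± 12.5 and 93.0 ± 46.5 CPM, and the log2 fold change of 2.92 ± 0.49 (adjusted p = 7.31e-05) was the largest of the 9 genes. Clu was scarce without carmofur: control 9, at 0.511 CPM, was below the 0.722 CPM that 3 counts make at its depth.

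Il33 encodes an alarmin cytokine that epithelial cells hold in the nucleus and release on damage. It stood at 3.75, 15.3 and 33.3 CPM (lowest, median, highest) in controls and at 31.9, 53.9 and 82.7 CPM with carmofur. Only the highest control, control 1, reached into the treated range, where it lay above 2 of 15 treated libraries. The log2 fold change was 1.85 ± 0.27 (adjusted p = 3.3e-06).

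Il1rn encodes the secreted antagonist of the interleukin-1 receptor, and it gave the smallest adjusted p of the 9. Its controls held 149, 219 and 335 CPM (lowest, median, highest) and its treated libraries 291, 509 and 670 CPM. Treated libraries exceeded the highest control in 14 of 15 cases. Mean levels were 225 ± 57.6 and 494 ± 103 CPM, and the log2 fold change was 1.13 ± 0.13 (adjusted p = 1.72e-08).

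Among the surface proteins, Cd44, the receptor for hyaluronan and osteopontin, stood at 63.8, 107 and 153 CPM (lowest, median, highest) in controls and 126, 199 and 323 CPM with carmofur. Of its treated libraries 13 of 15 lay above every control, and the log2 fold change was 0.91 ± 0.14 (adjusted p = 1.01e-05). Msln encodes mesothelin, a cell-surface glycoprotein of mesothelium and of many carcinomas. It had controls at 25.2, 35.8 and 80.4 CPM and treated libraries at 53.8, 99.4 and 192 CPM, with 9 of 15 above every control, and its log2 fold change was 1.29 ± 0.22 (adjusted p = 5.76e-05). The Msln ranges overlapped between 53.8 and 80.4 CPM, and Upk1b, the mesothelial marker that was detected, rose beside it as given above.

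Emp1 encodes an epithelial membrane protein of the PMP22 family that marks cells of relapsing colorectal tumours. Its levels were 83.9, 148 and 216 CPM (lowest, median, highest) in controls and 162, 232 and 309 CPM with carmofur, and its log2 fold change was 0.62 ± 0.12 (adjusted p = 0.000236). Tnfrsf12a encodes Fn14, the receptor of the cytokine TWEAK. Its levels were 27.6, 63.5 and 97.6 CPM in controls and 46.4, 98.4 and 154 CPM with carmofur, and its log2 fold change was 0.60 ± 0.18 (adjusted p = 0.0272). Treated libraries lay above every control in 10 of 15 cases for Emp1 and in 8 of 15 for Tnfrsf12a, so both distributions overlapped their controls.

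Ly6a was the most abundant of the 9 and moved least. It stood at 1056, 1349 and 1605 CPM (lowest, median, highest) in controls and at 1328, 1453 and 2221 CPM with carmofur. The ranges overlapped widely, with 5 of 15 treated libraries above every control, and the log2 fold change was 0.25 ± 0.08 (adjusted p = 0.0433). The 3 highest libraries, from 2056 to 2221 CPM, all belonged to the set numbered from 201128.

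Per kilobase of exon, the order of the control medians was Ly6a (1119 CPM per kb), Il1rn (39.5), Spp1 (39.2), Tnfrsf12a (32.9), Emp1 (24.9), Cd44 (15.8), Msln (11.7), Il33 (5.28) and Clu (2.20). With carmofur the medians per kilobase ran Ly6a (1206), Spp1 (269), Il1rn (91.9), Tnfrsf12a (50.9), Emp1 (39.2), Msln (32.4), Cd44 (29.3), Clu (26.9) and Il33 (18.7). By this measure Spp1 lay beside Il1rn in controls and above it with carmofur. Their carmofur ranges of 150 to 791 and 52.6 to 121 CPM per kb did not overlap. The length used joins the exons of all annotated transcripts, 1.648 kb for Spp1 and 5.535 kb for Il1rn, and may differ from the transcript expressed. In CPM their carmofur ranges, 247 to 1303 and 291 to 670, overlapped, and the control medians were 64.6 and 219. Neighbours in the order from Il1rn to Il33 overlapped in range with carmofur, as did all neighbours below Ly6a in controls. The median of Clu, the lowest of the 9 in controls, lay within the ranges of Cd44 and Msln with carmofur.

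The calls differed in how far they depended on single sets of libraries and on scaling. Spp1, Clu, Il33, Il1rn, Cd44 and Msln stayed past the threshold in each of 18 alternatives, among them summing counts over each set of 3 libraries (4 control and 5 treated sets) and leaving out each set in turn. Emp1 lost its call only with summed sets (adjusted p = 0.0643). Tnfrsf12a lost it with summed sets (adjusted p = 0.103), with the block as a covariate (0.0732) and without any of 5 sets, those numbered from 201113 (0.07), 201125 (0.0534), 201128 (0.0711), 201131 (0.106) and 201140 (0.207). Ly6a lost it with summed sets (adjusted p = 0.37), with the block as a covariate (0.0602), with RLE scaling (0.0507), without the 3 libraries that stood apart (0.0845) and without the sets from 201107 (0.125), 201119 (0.177), 201128 (0.288) or 201131 (0.169). Without the set from 201128 the log2 fold change of Ly6a fell to 0.13.

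**Figure D2:**
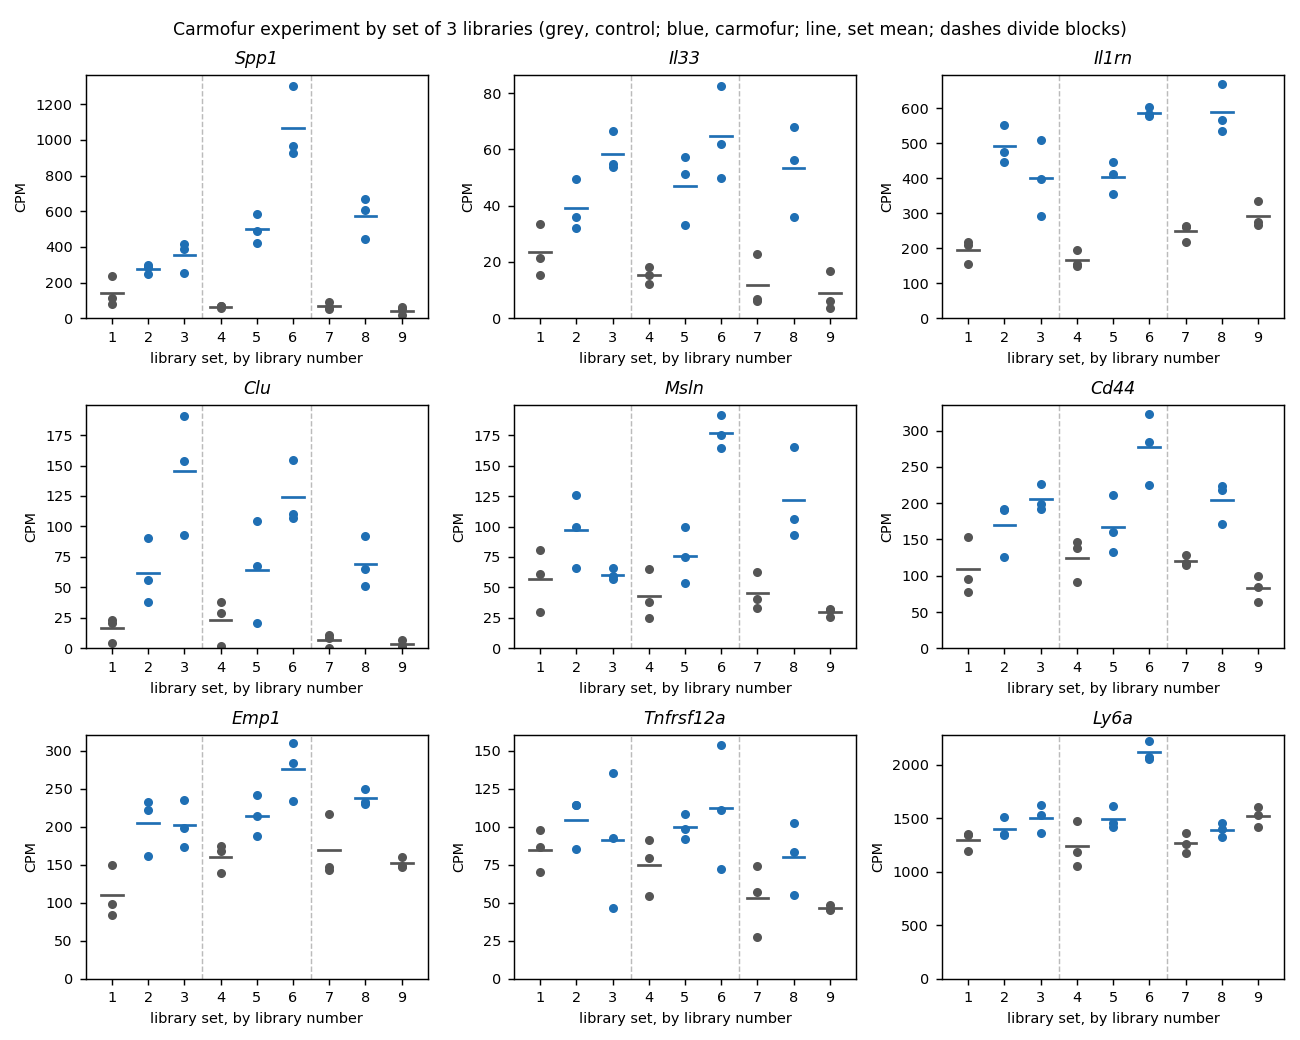
Level of each gene, as CPM on a linear axis from 0, in the 9 sets of 3 consecutive library numbers, each point a library (grey, control; blue, carmofur), each line the mean of a set, and dashes between the blocks. The means of the 5 treated sets lie above all 4 control sets for every gene but Tnfrsf12a (4 of 5) and Ly6a (1 of 5).

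Set means of Spp1 were between 42.6 and 141 CPM in the 4 control sets and between 279 and 1065 CPM in the 5 treated sets. The corresponding ranges were 3.49 to 23.0 and 61.5 to 146 CPM for Clu, and 165 to 293 and 399 to 590 CPM for Il1rn. For 7 of the 9 genes all 5 treated sets exceeded all 4 control sets, as did 5.05% of the genes tested. The set from 201128 (carmofur 10, 11 and 12) was the highest of all 9 sets for Spp1 (1065 ± 207 CPM, SD, n = 3), Msln (177 ± 13.9), Cd44 (277 ± 49.3), Emp1 (275 ± 38.8), Il33 (64.7 ± 16.7), Tnfrsf12a (112 ± 41.0) and Ly6a (2116 ± 91.4). For Clu the set from 201116 was higher (146 ± 49.2 against 124 ± 26.4 CPM), and for Il1rn the set from 201137 (590 ± 70.8 against 587 ± 13.9 CPM), both within an SD of it.

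Within the blocks of library numbers, Il1rn rose in all 3, Spp1, Il33 and Msln in the second and the third, Clu and Cd44 in the third, Emp1 in the first and Ly6a in the second. Of the 9 genes 2 passed the test in the first block, 5 in the second and 6 in the third, where 0.503%, 3.13% and 2.8% of the 13123 genes tested were called higher. None of the 9 was called lower in any block. Every one of the 9 had a positive log2 fold change in the first and the second block, and Ly6a alone, at -0.03 ± 0.12 in the third block, did not in the third.

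Il1rn was the gene called in all 3 blocks, with log2 fold changes of 1.19 ± 0.18, 1.55 ± 0.19 and 1.10 ± 0.17 in block order (adjusted p = 0.000244, 6.25e-07 and 2.65e-05). In the first block its controls held 154, 209 and 219 CPM and its lowest treated library 291 CPM. Controls and treated libraries did not overlap in any block, a separation that 3.79%, 5.39% and 6.48% of genes showed in the higher direction, and the call held in all 34 alternatives for each block.

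**Figure D3:**
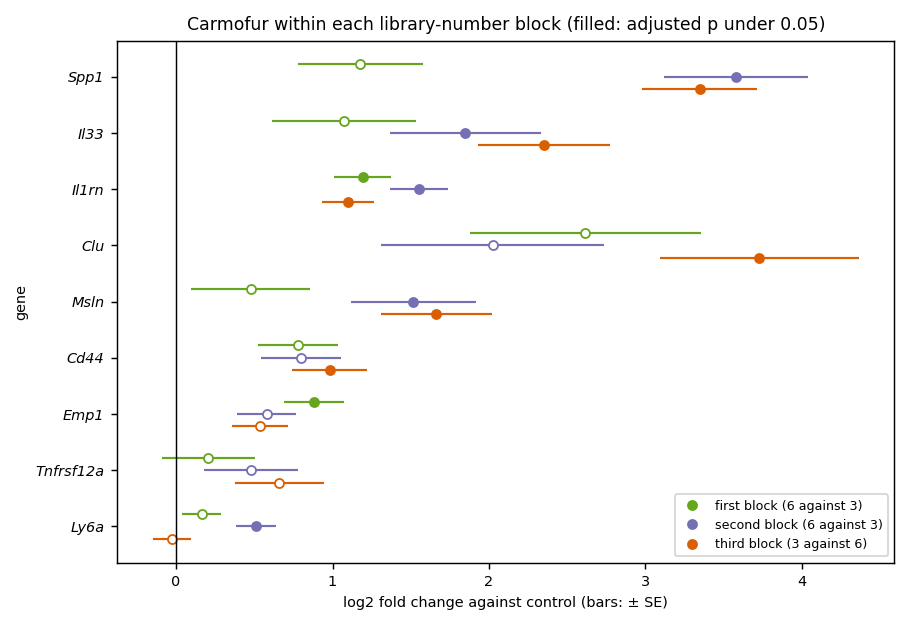
Log2 fold change with carmofur in each block of library numbers for each gene, with bars for ± SE and filled points for an adjusted p under 0.05. Spp1 lies lower in the first block (1.18) than in the second (3.58) and the third (3.35).

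Spp1 had controls at 234, 112 and 76.6 CPM in the first block, at 66.4, 56.5 and 68.9 CPM in the second, and between 16.2 and 90.2 CPM in the third. Its treated libraries held 247 to 415 CPM in the first block, 423 to 1303 CPM in the second, and 444, 666 and 609 CPM in the third. The first block therefore had both the highest controls and the lowest treated libraries, and yet the groups did not overlap there, as for 3.79% of genes in the higher direction. The log2 fold changes were 1.18 ± 0.40 (adjusted p = 0.211), 3.58 ± 0.46 (8.85e-06) and 3.35 ± 0.37 (1.28e-06).

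A test that the carmofur effect is the same in all 3 blocks was passed by 1.07% of genes and by 1 of the 9, Spp1 (adjusted p = 0.0248). For the others the adjusted p lay between 0.272 (Ly6a) and 0.984 (Cd44), which does not show that their blocks were alike. The effect on Spp1 was larger in the second block than in the first by 2.40 ± 0.55 on the log2 scale (adjusted p = 0.0304, in a comparison where 0.876% of genes were called). The third block exceeded the first by 2.17 ± 0.52 (adjusted p = 0.292, in a comparison where 0% of genes were called). The block call rested on few libraries: it was lost without control 1 (adjusted p = 0.132), control 4 (0.064), control 5 (0.0659), carmofur 2 (0.0503), carmofur 14 (0.0554) or carmofur 15 (0.0536), and likewise without the 3 libraries that stood apart (0.18) and with no filter on low counts (0.0762). Without control 1, the library at 234 CPM, the first-block log2 fold change of Spp1 was 1.75 (adjusted p = 0.0813), and its first-block p was 0.0449 without control 10 and 0.0379 with the block fitted on its own libraries.

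Clu had log2 fold changes of 2.62 ± 0.74, 2.02 ± 0.71 and 3.73 ± 0.64 in block order (adjusted p = 0.0762, 0.0954 and 0.000165). Its controls in the second block were uneven, at 38.0, 29.3 and 1.74 CPM, and carmofur 8, at 21.0 CPM, fell among them. Without carmofur 8 the second-block value was 2.23 (adjusted p = 0.0497), and the first-block p was 0.038 without control 6, 0.0263 with DESeq2 and 0.0139 with the block fitted on its own libraries. In the third block the treated libraries, at 51.0, 65.2 and 92.3 CPM, were far from controls of at most 10.6 CPM.

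Il33 gave 1.07 ± 0.46, 1.85 ± 0.48 and 2.35 ± 0.42 in block order (adjusted p = 0.358, 0.0137 and 0.000303), and Msln 0.48 ± 0.38, 1.52 ± 0.40 and 1.66 ± 0.36 (adjusted p = 0.721, 0.015 and 0.00251). The second-block call of Il33 was lost without control 4 (adjusted p = 0.0917) or control 6 (0.0549), and that of Msln without control 4 (0.124) or control 5 (0.0807). In the first block control 1 held 33.3 CPM of Il33 and 80.4 CPM of Msln, the highest control level of each gene. Treated libraries of that block ranged from 31.9 to 66.5 CPM for Il33 and from 56.6 to 126 CPM for Msln, so the groups overlapped.

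Cd44 varied little between blocks, with 0.78 ± 0.26, 0.80 ± 0.25 and 0.98 ± 0.24 in block order (adjusted p = 0.17, 0.0574 and 0.00915). Emp1 gave 0.88 ± 0.19, 0.58 ± 0.19 and 0.54 ± 0.18 (adjusted p = 0.0103, 0.0613 and 0.0814). Its treated libraries stood above all controls of their block in each of the 3 blocks, a separation that 3.79%, 5.39% and 6.48% of genes showed. Its first-block call was lost without control 1 (adjusted p = 0.107), control 3 (0.128) or the 3 libraries that stood apart (0.0894). The second-block values of Cd44 and Emp1 passed with all libraries kept under DESeq2 (adjusted p = 0.0205 and 0.0213), RLE scaling (0.0484 and 0.0493) and a minimum mean count of 10 (0.0379 and 0.0403). They also passed in edgeR when single libraries were left out, Cd44 without controls 1, 2 or 12 or carmofur 1, 7 or 9, and Emp1 without controls 2, 3 or 7 or carmofur 1 or 9. The third-block value of Emp1 passed with DESeq2 (adjusted p = 0.0472) and without control 2 (0.0406) or control 7 (0.0295).

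Tnfrsf12a passed in no block, with 0.21 ± 0.30, 0.48 ± 0.30 and 0.66 ± 0.29 in block order (adjusted p = 0.902, 0.414 and 0.222). Ly6a rose in the second block (0.51 ± 0.13, adjusted p = 0.00873), where the set from 201128 held 2070, 2221 and 2056 CPM and its controls 1056, 1185 and 1475 CPM. That call was lost without control 4 (adjusted p = 0.097) or control 5 (0.051) and with the block fitted on its own libraries (0.0503), and the test between blocks did not pass (0.272). In the first and the third block the Ly6a values were 0.16 ± 0.12 (adjusted p = 0.695) and -0.03 ± 0.12 (0.97), the last with a sign that changed in 17 of 34 alternatives.

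Palmitic acid gave no call among the 9 genes in either batch. edgeR called 0 of 9 in batch 1, where 0.559% of the 9845 genes tested passed, and 0 of 9 in batch 2, where 0.325% passed. At an unadjusted p under 0.05, Il1rn and Ly6a were below control in batch 1 (2 of 9, against 7.73% of all genes), and Il1rn, Ly6a and, above control, Tnfrsf12a stood out in batch 2 (3 of 9, against 7.1%). DESeq2 called 1 of 9 in batch 1, Ly6a (log2 fold change -0.35, adjusted p = 0.0467), and 0 of 9 in batch 2. Both batches were compared with the same 3 controls, which the labels assign to neither batch, so a batch and its treatment cannot be told apart. The agreement of the batches is therefore not independent.

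Il1rn held 199, 198 and 224 CPM in the palmitic acid controls, 140, 161 and 144 CPM in batch 1 and 144 and 166 CPM in batch 2. All 5 treated libraries lay below the lowest control, the opposite side from carmofur, with log2 fold changes of -0.48 ± 0.17 (adjusted p = 0.334) and -0.42 ± 0.19 (0.629). Ly6a held 1785, 1709 and 1706 CPM in controls, 1290, 1312 and 1466 CPM in batch 1 and 1335 and 1452 CPM in batch 2. It too was below every control in all 5 treated libraries, by -0.35 ± 0.11 (adjusted p = 0.196) and -0.31 ± 0.13 (0.511). Such a separation in the lower direction was seen for 6.12% of genes in batch 1 and 9.02% in batch 2.

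Tnfrsf12a was the only one of the 9 above every control in both batches. It held 42.5, 45.8 and 55.3 CPM in controls, 57.3, 59.5 and 57.7 CPM in batch 1 and 80.2 and 77.4 CPM in batch 2. The log2 fold changes were 0.27 ± 0.27 (adjusted p = 0.903) and 0.71 ± 0.29 (0.531), and 6.92% of genes in batch 1 and 10.9% in batch 2 separated in the higher direction. Msln was above every control in batch 2, at 88.0 and 84.9 CPM against 79.9, 51.3 and 65.7 CPM, but not in batch 1, at 56.9, 53.8 and 77.9 CPM.

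Spp1 and Clu, which rose most with carmofur, were scarce and scattered in this experiment. Spp1 held 10.3, 10.97 and 58.0 CPM in controls, 19.0, 46.7 and 51.9 CPM in batch 1 and 19.2 and 11.6 CPM in batch 2. Clu held 3.87, 12.1 and 1.80 CPM in controls, 9.05, 12.4 and 14.9 CPM in batch 1 and 10.02 and 4.58 CPM in batch 2. The control spread of both genes spanned most treated values, and control 1, at 3 counts of Clu, was at the floor of what its depth could show. The log2 fold changes were 0.51 ± 0.61 and -0.82 ± 0.71 for Spp1 and 0.96 ± 0.74 and 0.25 ± 0.82 for Clu, in batch order.

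Il33 held 25.8, 14.9 and 10.8 CPM in controls against 8.19, 8.85 and 13.9 CPM in batch 1 and 10.8 and 10.8 CPM in batch 2, with log2 fold changes of -0.69 ± 0.60 and -0.62 ± 0.67. Cd44 (-0.19 ± 0.20 and 0.13 ± 0.22) and Emp1 (-0.11 ± 0.22 and -0.07 ± 0.25) stayed within 0.2 of no change. Changes of Cd44, Emp1, Il33, Spp1 or Clu with palmitic acid were not detectable at this depth and replicate number.

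**Figure D4:**
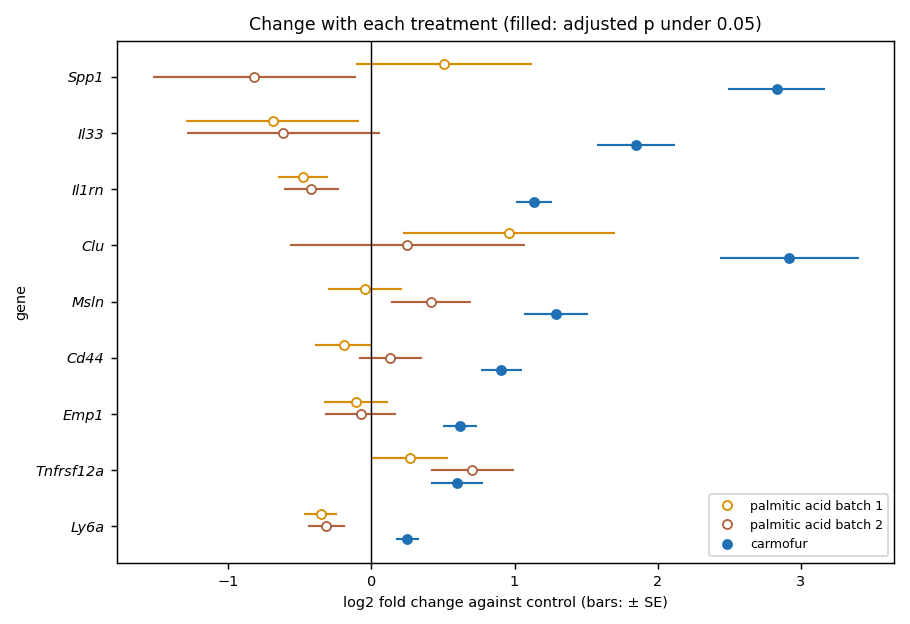
Log2 fold change of each gene with palmitic acid batch 1, palmitic acid batch 2 and carmofur, each against its own controls, with bars for ± SE and filled points for an adjusted p under 0.05. All 9 carmofur points are filled and to the right of 0, and none of the palmitic acid points is filled.

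Whether the 2 treatments differed was tested in a fit over all 35 libraries as the carmofur effect minus the mean palmitic acid effect. In that fit 0.818% of the 14052 genes tested were called, 0.662% with the carmofur effect higher. Of the 9 genes 3 passed, all with carmofur higher: Il1rn (1.58 ± 0.25, adjusted p = 0.000194), Il33 (2.51 ± 0.56, 0.014) and Spp1 (2.998 ± 0.73, 0.0397). Ly6a (0.59 ± 0.16, adjusted p = 0.0585), Cd44 (0.94 ± 0.28, 0.114), Emp1 (0.71 ± 0.25, 0.242), Msln (1.11 ± 0.43, 0.36) and Clu (2.36 ± 1.01, 0.471) did not pass. For Tnfrsf12a the difference was 0.11 ± 0.36 (adjusted p = 1.0), and both treatments had positive values.

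The Il1rn difference held in all 22 alternatives. That of Il33 was lost without palmitic acid control 1 (adjusted p = 0.0923) or without either library of batch 2 (0.0825 and 0.0928). That of Spp1 was lost in 13 of 22, most of all without palmitic acid control 3, the control at 58.0 CPM, where it was 1.62 (adjusted p = 0.804). It was also lost without any of the 5 treated palmitic acid libraries (adjusted p from 0.0566 to 0.253) and without any of the sets numbered from 201119, 201125, 201128, 201131, 201137 or 201140 (0.0572 to 0.0894), and with no filter on low counts (0.0695). The Ly6a difference passed with DESeq2 (adjusted p = 0.0202), a minimum mean count of 10 (0.0452) and library-size scaling (0.0249), and without the set from 201113 (0.0428) or from 201140 (0.0325). The Cd44 difference passed with DESeq2 (adjusted p = 0.0421). The treatments belong to separate experiments, so this difference and one between the experiments cannot be told apart.

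Of 28 other revival and fetal-like genes listed, 26 were tested with carmofur, 6 rose and 0 were called lower, where 5.21% of all genes tested were called higher and 3.8% lower. Positive values were found for 23 of the 26 (median log2 fold change 0.45), against 50.2% of all genes. The largest of the named rises was in Tm4sf1, a tetraspanin-like surface protein, from 39.0 ± 12.4 to 156 ± 77.4 CPM (1.996 ± 0.22). Ctsl, a lysosomal protease, rose by 0.99 ± 0.12 and S100a6, a calcium-binding protein, by 0.47 ± 0.07. Anxa1, often used to mark the fetal-like state, held 2645 ± 439 CPM in controls and 3044 ± 593 CPM with carmofur. Its ranges overlapped, at 2156 to 3528 and 2302 to 4087 CPM. It passed in the second block (0.42 ± 0.11, adjusted p = 0.0177). Like Spp1, Cd55 (adjusted p = 0.00285) and Ctsl (0.0156) differed between blocks. With palmitic acid 0 of the 25 tested passed in batch 1, where 0.559% of all genes did, and 1 in batch 2, where 0.325% did. At an unadjusted p under 0.05 there were 4 in batch 1 and 5 in batch 2, against 7.73% and 7.1% of all genes. The call was Gja1, a gap-junction protein at 0.208 ± 0.294 CPM in batch 2 against 9.90 ± 7.69 CPM in controls. Both batch 2 libraries were below the 0.802 to 1.25 CPM that 3 counts make at their depth, and batch 1 held 12.1 ± 5.12 CPM.

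Of the ligands, receptors and close relatives of the 9 genes, 32 were listed and 19 were tested with carmofur. Among the 19, 2 rose and 0 were called lower, where 5.21% of all genes tested were called higher and 3.8% lower. Positive values were found for 15 of the 19, against 50.2% of all genes. The 2 that rose were Pmp22, of the same family as Emp1 (1.82 ± 0.29, adjusted p = 1.38e-05), and Ly6d, of the same family as Ly6a (1.53 ± 0.30, 0.000277). Known partners of the 9 proteins ran from undetected to abundant. Il1rl1, which encodes the IL-33 receptor, had 1 count in all 35 libraries together. Tnfsf12, which encodes the ligand of Fn14, had 0 of 177872716 counts, which allows at most 0.0169 CPM over the pooled libraries. Muc16, the binding partner of mesothelin, was at 0 in 34 of 35 libraries, and Itgb3, an integrin subunit for osteopontin, in 30 of 35. Other receptors of osteopontin were expressed: Cd44 as given above, and the integrin subunit Itgb1 at 155 ± 44.7 CPM in carmofur controls and 165 ± 44.6 CPM with carmofur. Itgav, the integrin subunit that pairs with both, was present at 59.4 ± 25.7 CPM in carmofur controls and 87.2 ± 43.5 CPM with carmofur and rose in the second block (1.21 ± 0.38, adjusted p = 0.0482). Il1r1, the interleukin-1 receptor that the product of Il1rn blocks, held 4.49 ± 5.28 CPM in controls and 11.4 ± 8.92 CPM with carmofur (log2 fold change 1.34 ± 0.71, adjusted p = 0.311), and its co-receptor Il1rap 15.7 ± 7.35 and 13.3 ± 7.48 CPM.

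Ly6c1, the relative that shares transcript words with Ly6a, was the gene of this list that palmitic acid changed. It fell by -0.72 ± 0.13 in batch 1 (adjusted p = 0.000163) and by -0.70 ± 0.14 in batch 2 (0.0039), from 882 ± 82.6 CPM in controls to 534 ± 17.3 and 543 ± 27.6 CPM. It moved beside the lower Ly6a values, and how far shared reads link the pair was not tested. With carmofur Ly6c1 rose in the second block (0.57 ± 0.14, adjusted p = 0.00941), the block in which Ly6a rose.

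Crypt-base stem cell genes mark the homeostatic intestinal stem cell. Of 17 listed, 15 were tested with carmofur, 2 fell and 1 rose, where 3.8% of all genes tested were called lower and 5.21% higher, and the other 12 did not pass. Positive values were found for 2 of the 15, against 50.2% of all genes, and the median log2 fold change was -0.51. Within the blocks 0, 1 and 0 of the 15 were called in either direction, in block order, and the 1 call was lower. In those blocks 144, 756 and 605 of the 13123 genes tested were called in either direction. Ascl2, a transcription factor of the crypt base, fell from 31.8 ± 18.8 to 13.7 ± 8.20 CPM (-1.21 ± 0.39, adjusted p = 0.0417). Cdca7 fell from 122 ± 30.1 to 77.3 ± 28.7 CPM (-0.66 ± 0.19, adjusted p = 0.0165). Prom1, a membrane glycoprotein, rose by 0.51 ± 0.16 (adjusted p = 0.0391). edgeR called 0 of the 15 in either palmitic acid batch, where 0.559% of all genes tested passed in batch 1 and 0.325% in batch 2. At an unadjusted p under 0.05 there were 3 of the 15 in batch 1, against 7.73% of all genes, and 5 in batch 2, against 7.1%.

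Correlations among the 9 genes from library to library were uneven. After the mean of each treatment-by-block group was subtracted from log2(CPM + 1), the 36 pairs of genes had Pearson correlations from -0.28 (Clu and Msln) to 0.70 (Cd44 and Emp1) over the 27 carmofur libraries, with a median of 0.22 and 29 positive. Il33 and Spp1 correlated at 0.56, Il1rn and Ly6a at 0.54 and Spp1 and Msln at 0.51. Clu, the defining gene of the revival state, correlated at -0.01 with Spp1 and -0.20 with Il33, although all 3 rose with carmofur. By Spearman's rank correlation the values were 0.15 and -0.06. Clu was scarce in controls, from 0.511 to 38.0 CPM, and how far its low counts shaped these values was not tested. The libraries share depth and set, both of which can raise such values. The correlations are given as a description, and pairs of other genes were not summarized as a reference.

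**Figure D5:**
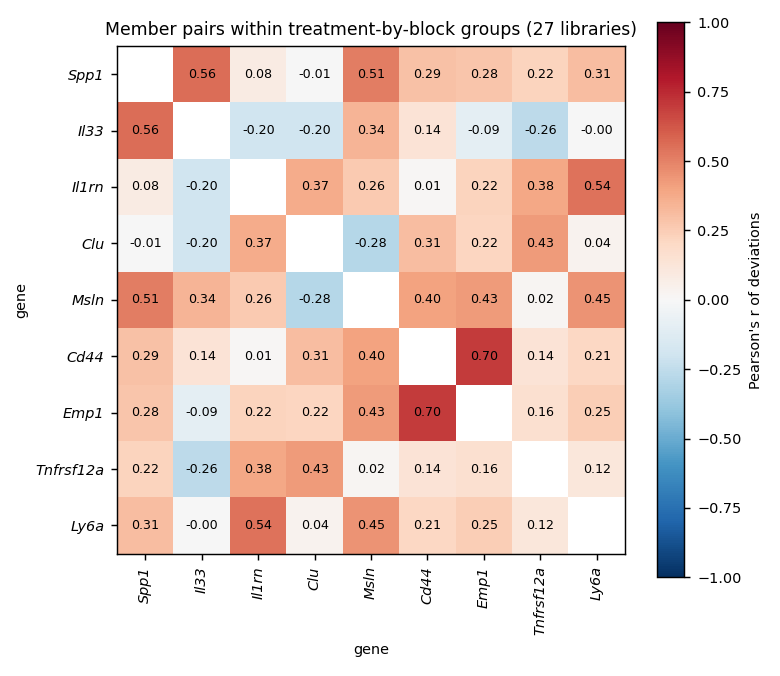
Pearson correlation of each pair of genes over 27 carmofur-experiment libraries, computed on log2(CPM + 1) after the mean of each treatment-by-block group was subtracted. The highest value is 0.70 for Cd44 and Emp1 and the lowest -0.28 for Clu and Msln.

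By the same measure over 8096 genes, the genes most like each of the 9 were Slfn5 (0.78) and Dnajb14 (0.76) for Spp1, Eif2b4 (0.77) and Phgr1 (0.75) for Clu, and Rab17 (0.69) and Dgat2 (0.66) for Il33. Il1rn was most like Cyp4f16 (0.79) and Fbxo21 (0.74), and Msln most like Eml1 (0.78) and Rnd3 (0.75). Each pair is the highest of all genes compared over 27 libraries, a choice that favours high values, and none was tested. Cd44 was most like Tulp3 (0.81) and Apobec1 (0.77), and Emp1 most like Apobec1 (0.71) and Gripap1 (0.71). Apobec1 was thus named for both Cd44 and Emp1, which themselves correlated at 0.70. Tnfrsf12a was most like Tsfm (0.78) and Dgcr6 (0.71). Ly6a was most like Klf6 (0.81) and Ly6c1 (0.76), the relative with which it shares transcript sequence.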

How the data were processed

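Polyadenylated RNA of organoids was sequenced in 35 libraries, per the labels' protocols with a strand-specific kit. Per the submitters' processing notes, Salmon 1.3.0 and mm10 were used, and the authors deposited the resulting estimated counts for each gene as whole numbers. The annotation release is not given in the sources used here, and 1243 unnamed rows hold 0.0216% of counts. Replicates were compared in 178 pairs, and no pair agreed within sampling noise (chi-square over degrees of freedom at least 7.87).

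Tests used edgeR 4.0.16 in R 4.3.3 (TMM scaling, filterByExpr, robust quasi-likelihood F test) with Benjamini-Hochberg adjustment over all genes tested and a threshold of 0.05. Palmitic acid libraries (8) were fitted together, carmofur libraries (27) by treatment and by treatment and block, and all 35 for the difference of the effects. All 9 genes passed the expression filter in each fit. Each SE was taken as the log2 fold change over the square root of its F value. The floor is 3 counts, which covers counting error only. DESeq2 1.42.0 was an alternative, and the test code was checked on simulated data. GENCODE M21 matched 51528 of 54354 gene identifiers and gave positions and exon lengths.

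The genes, lists and comparisons were chosen with earlier results of these data known. Named were all 9 genes, up to 4 per list and comparison with the lowest p, and for each of the 9 the 2 most correlated named genes with a mean of at least 5 CPM. Anxa1, Itgav, Itgb1, Il1r1, Il1rap, Il1rl1, Tnfsf12, Muc16 and Itgb3 were named outside that rule, after their values were seen. For Anxa1 and Itgav only the test of the second block is given. Some of the genes the rule names are left out here.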

Additional observations from a re-analysis of the deposited data

Results flagged for a closer look

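Spp1 was the 1 gene of the 9 whose carmofur effect differed between the blocks of library numbers by a test of the difference (adjusted p = 0.0248, edgeR). In 27 checks of groups of 4 to 10 libraries, 2 had a library far from the others, where chance gives about 1 in 20. Cd44 in carmofur 1, at 126 CPM, was the lowest of the 6 treated libraries of the first block, with a gap to the next that made up 0.64 of their range. Emp1 in carmofur control 7, at 216 CPM, was the highest of the 6 controls of the third block, with a gap of 0.765 of their range.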

How the results depend on the processing

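For carmofur over all libraries, the count of the 9 genes called stayed between 6 and 9 in 18 alternatives, and the number of all genes called was 901, 3541 with no filter on low counts, 334 with summed sets, and 740 to 981 with a set left out (7 to 9 of the 9 genes). For palmitic acid, DESeq2 called 1 of the 9 in batch 1; in batch 2 it called 55 genes and a fit of both batches as 1 group 70, against 32. Leaving out each library gave 21 to 72 genes in batch 1 and 23 to 48 in batch 2, with 0 of the 9 throughout. In the first block 144 genes were called, 315 by DESeq2, 234 with that block alone, 73 without the 3 libraries that stood apart and 60 to 161 with a library left out. There 4 of the 9 passed with the block alone, 1 without the 3 libraries and 1 to 3 with a library left out. In the second block DESeq2 called 1182 genes against 756, and leaving out a library gave 456 to 780 (2 to 7 of the 9); in the third it gave 392 to 645 against 605 (6 to 7 of the 9). For the difference between blocks, DESeq2 called 323 genes against 141, the fit without the 3 libraries 86 and leaving out a library 73 to 184. Of the 9, 0 passed with no filter or without the 3 libraries and 0 to 1 with a library left out. For the difference of the treatments, DESeq2 called 224 genes and 5 of the 9, against 115 and 3, and leaving out libraries gave 31 to 165 genes and 1 to 4 of the 9.

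The following log2 fold changes, none of them called, changed sign, and the cause was not tested. Ly6a in the third block was 0.0216 with no filter, 0.0014 with a mean count of at least 10, 0.0072 without the 3 libraries and -0.069 to 0.052 with a library left out. With both batches as 1 group Msln was 0.14 in batch 1, and in batch 2 Spp1 was 0.0819 and Cd44 -0.0713. With a library left out, batch 1 gave Msln from -0.23 to 0.10 and Emp1 from -0.26 to 0.0176, batch 2 gave Clu from -0.43 to 1.502, Spp1 from -1.23 to 0.54 and Emp1 from -0.22 to 0.0547, and the treatment difference of Tnfrsf12a ran from -0.016 to 0.27.

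With the replicate number as a block, 42 genes were called in palmitic acid batch 1, 28 in batch 2 and 799 with carmofur, where all 9 genes kept their calls; in batch 2 Spp1 was then 0.18 and Emp1 0.029. Deviations of libraries with the same number correlated between -0.026 and 0.047, and none of the pairs passed 0.1. With 3 and 2 pairs for palmitic acid and 12 for carmofur, and no adjustment for block, this cannot show whether they share an origin. Depth limits Clu and Spp1 most in the palmitic acid controls, where 3 counts are 1.19 to 3.93 CPM.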
